A study of Mus musculus with 9 samples.

Results

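The chemokine ligand family was described here in the lungs of tumour-bearing mice. Members were the genes of the table whose symbol is Ccl or Cxcl followed by a number, with an optional letter for Ccl, together with Xcl1 and Cx3cl1. The platelet chemokines Pf4 and Ppbp were left out by this rule. It found 38 genes among 45706, and 29 of the 38 were among the 13248 genes that reached 1 TPM in 3 or more of the 9 lungs and were tested. TPM, the length-corrected share of a transcript in its library, was the unit, so levels can be compared between genes on this scale. RNA was sequenced from whole lungs of female BALB/c mice, 4 to 6 weeks old, that all carried 4T1 cells in the right flank, a line of mouse mammary carcinoma. One group received nanocapsules of an antibody against PD1, an inhibitory receptor of T cells, another group received the free antibody (anti-PD1), and the controls received phosphate-buffered saline (PBS). Treatment was given on days 7 and 14 after the tumour cells, and lungs were taken on day 21, 3 per group. The stated dose of 150 µg per mouse stands beside the nanocapsules, and whether the free antibody was given at the same dose is not clear from the labels. Lungs of mice without a tumour and empty nanocapsules were not analysed here.

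Chemokines are small secreted proteins that bind G protein-coupled receptors on leukocytes and direct their movement along gradients. Inflammatory members are induced by cytokines and microbial signals and recruit neutrophils, monocytes, eosinophils or effector lymphocytes, while homeostatic members position lymphocytes in lymphoid organs and mucosal tissue. In the lung they are made by macrophages, epithelium, endothelium and stroma as well as by the recruited leukocytes, and 4T1 tumours are known for the myeloid cells that they bring to this organ.

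Lungs are numbered within a group and not tied to named animals, so each p-value reflects only how these samples vary. No batch is labelled, and TPM keep no sequencing depth, so the depth was unknown. A lung held 12194 to 13407 genes at 1 TPM or more, and Spearman correlations ran from 0.973 to 0.982 for lungs of 1 group and from 0.950 to 0.981 for lungs of different groups. Summed TPM of the 8 neutrophil markers was 166627 to 190302 TPM in nanocapsule lungs, 110402 to 127495 TPM in anti-PD1 lungs and 131286 to 181274 TPM in PBS lungs. Summed TPM of the 5 immature thymocyte markers was 97.7 in anti-PD1 lung 3, against 12.8 to 40.03 in the other 8 lungs. Whole lung was sequenced, and fewer cells of a type and less RNA per cell cannot be told apart in these values.

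All 3 genes that stand for the family were present: Cxcl2, a neutrophil attractant, averaged 704 TPM over the 9 lungs, Ccl24, an eosinophil attractant, 10.7 TPM, and Cxcl9, a T cell attractant, 1.81 TPM. The family held 2651, 2431 and 3294 TPM in nanocapsule lungs, 3284, 3586 and 3289 TPM in anti-PD1 lungs and 3032, 2687 and 3028 TPM in PBS lungs, 0.243% to 0.359% of each library's TPM. Most of it came from 2 genes. Ccl6, a mouse chemokine of myeloid cells that acts on CCR1, gave 43.5% to 56.4% of the family's TPM in a lung, and Cxcl2 gave 18.2% to 28.3%. Ccl6 had 1153, 1351 and 1735 TPM in nanocapsule lungs, 1718, 2022 and 1524 TPM in anti-PD1 lungs and 1643, 1253 and 1571 TPM in PBS lungs. The groups overlapped, and nanocapsule lung 1 was the lowest of all.

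By mean TPM over the 9 lungs, 5 members were at 100 or more (Ccl6, Cxcl2, Ccl5, Ccl3 and Ccl9). Another 6 lay between 10 and 100 (Ccl4, Cxcl15, Ccl2, Cxcl13, Cxcl1 and Ccl24), and 18 tested members were below 10. In a single lung, 26 to 30 members reached 1 TPM. The highest library exceeded the lowest by a median of 2.89 times over the tested members. For 6 members this ratio was under 2: Ccl4, Ccl3, Ccl6, Ccl9, Cxcl2 and Cxcl10. Of the 29 tested members, 27 were above 0 in all 9 lungs, and the exceptions were Ccl1 and Ccl8.

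**Figure D1:**
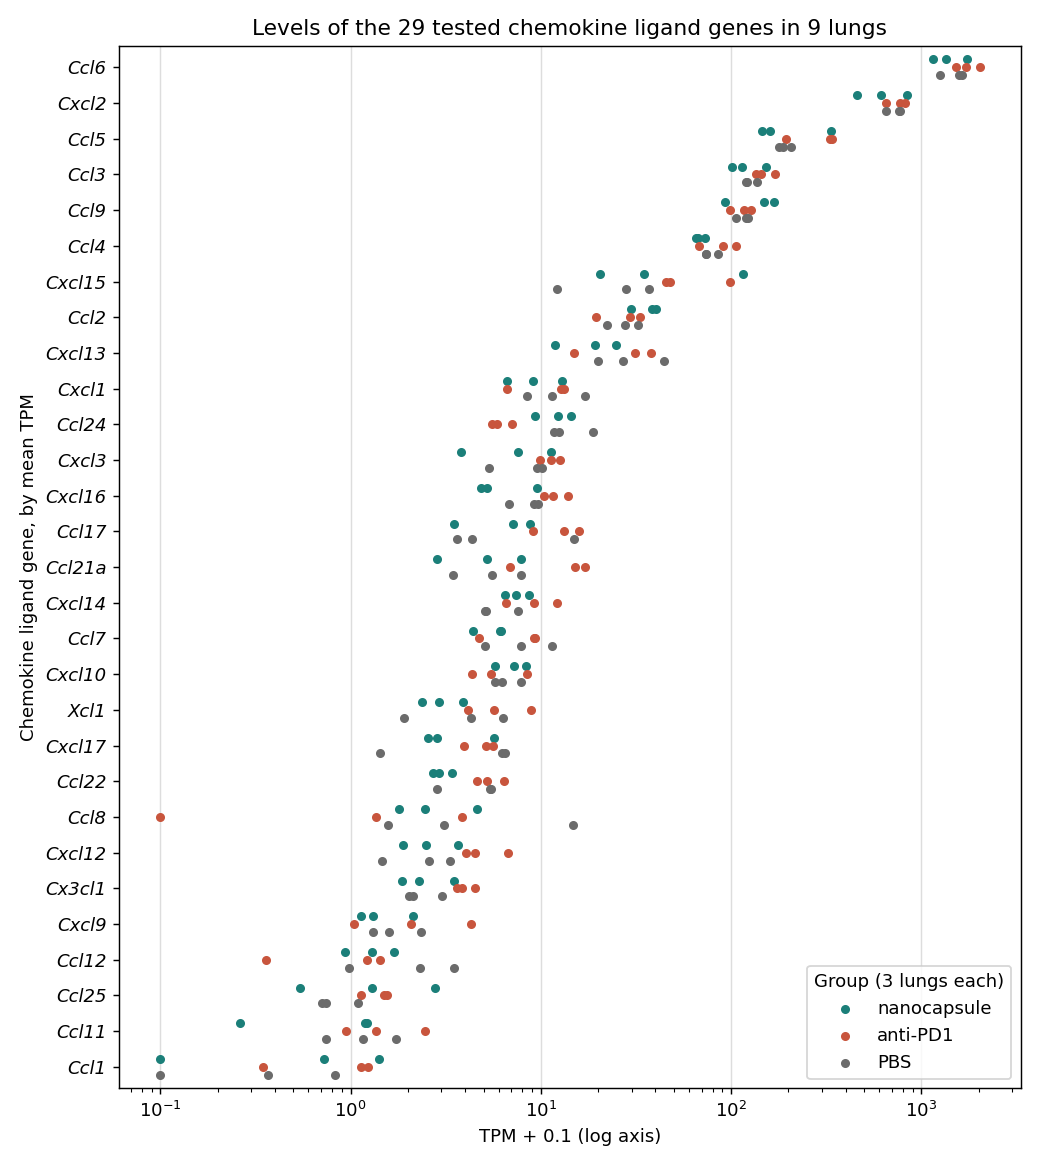
TPM of the 29 tested chemokine ligands in each lung, on a log axis of TPM + 0.1, with genes ordered by their mean over the 9 lungs and points coloured by group. Ccl6 and Cxcl2 stand above the rest, at 1153 to 2022 and 457 to 836 TPM, and 18 members average below 10 TPM.

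Neighbouring ligand genes differed widely in level. In GENCODE M21 on GRCm38, 27 of the 38 members fall into 7 clusters in which neighbours lie within 300 kb. The cluster at chr11:83525778-83664683 holds Ccl5, Ccl9, Ccl6, Ccl3 and Ccl4, all at a mean of at least 77.8 TPM. The cluster of neutrophil attractants at chr5:90759360-90905938 runs from Cxcl5, at a mean of 0.113 TPM, to Cxcl2, at 704 TPM. Ccl26, an eotaxin in human, was at 0 TPM in all 9 lungs, whereas its neighbour Ccl24 in the cluster at chr5:135560448-135573049 averaged 10.7 TPM.

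Compared with PBS lungs, anti-PD1 lungs held less Ccl24, which attracts eosinophils, with 6.08 ± 0.813 TPM in anti-PD1 lungs against 14.2 ± 3.94 TPM in PBS lungs, and more of the stromal ligand Cxcl12, at 4.99 ± 1.41 TPM in anti-PD1 lungs against 2.35 ± 0.936 TPM in PBS lungs (SD, n = 3 each). The endothelial ligand Cx3cl1 was likewise higher in every anti-PD1 lung, at 3.92 ± 0.462 TPM in anti-PD1 lungs against 2.30 ± 0.553 TPM in PBS lungs (SD, n = 3 each). These are values per lung without overlap, and none of them passed the test. No ligand passed the threshold of the test, a limma adjusted p under 0.05 over all 13248 genes, in any of the 3 comparisons, which share groups. For anti-PD1 against PBS limma called 0 ligands, beside 0.00755% of all tested genes. At an unadjusted limma p under 0.05 there were 5 ligands with higher values in the anti-PD1 lungs (Cxcl12, Cx3cl1, Ccl21a, Cxcl14 and Cxcl15), beside 8.48% of all tested genes, and 1 with lower values (Ccl24), beside 8.06%, which makes 16.5% of all genes in both directions. All 3 anti-PD1 lungs lay above all 3 PBS lungs for 5 ligands, beside 12.1% of all genes, and below for 1, beside 13.4%. The log2 difference was above 0 for 20 ligands, beside 56.9% of all genes, and below 0 for 9, with a median of 0.24 over the ligands and 0.04 over all tested genes.

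Nanocapsule and PBS lungs overlapped for 28 of the 29 tested ligands. The exception was Ccl4, which attracts T cells and macrophages, at 68.3 ± 4.00 TPM in nanocapsule lungs against 77.5 ± 6.42 TPM in PBS lungs (SD, n = 3 each). For the nanocapsule against PBS limma called 0 ligands, beside 0.00755% of all genes, and 0 ligands had an unadjusted limma p under 0.05, beside 10.1% of all genes, of which most (8.92% of all) were lower. The nanocapsule lungs lay below the PBS lungs without overlap for 1 ligand, Ccl4, beside 11.9% of all genes, and above for none, beside 2.4%. Differences were above 0 for 10 ligands, beside 28.8% of all genes, and below 0 for 19, beside 71.2%. The median was -0.13 over the ligands and -0.11 over all genes. Under median-of-ratios scaling, which brought the median of all genes to 0.00, the split was 13 above and 15 below among 28 tested ligands.

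Every nanocapsule lung held less Cxcl16 and less Ccl22 than any anti-PD1 lung. Cxcl16, the ligand of CXCR6, averaged 6.41 ± 2.59 TPM in nanocapsule lungs against 11.8 ± 1.78 TPM in anti-PD1 lungs, and Ccl22, a ligand of CCR4, averaged 2.91 ± 0.373 TPM in nanocapsule lungs against 5.30 ± 0.892 TPM in anti-PD1 lungs (SD, n = 3 each). Ccl24 stood the other way round, at 11.9 ± 2.51 TPM in nanocapsule lungs against 6.08 ± 0.813 TPM in anti-PD1 lungs (SD, n = 3 each). For the nanocapsule against anti-PD1 limma called 0 ligands, beside 0.106% of all genes (0.0679% higher and 0.0377% lower). At an unadjusted limma p under 0.05 there were 1 ligand with higher values in the nanocapsule lungs (Ccl24), beside 6.69% of all genes, and 7 with lower values (Cxcl16, Ccl22, Ccl21a, Cxcl12, Cx3cl1, Xcl1 and Ccl4), beside 21.0%, which makes 27.7% in both directions. The nanocapsule lungs lay above the anti-PD1 lungs without overlap for 1 ligand, beside 8.73% of all genes, and below for 6, beside 24.6%, which makes 7 ligands and 33.3% of all genes without overlap. Differences were below 0 for 23 ligands, beside 70.8% of all genes, and above 0 for 6. The median was -0.38 over the ligands and -0.17 over all tested genes, and under median-of-ratios scaling it was -0.22 over the ligands and -0.00 over all genes.

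Set against PBS, anti-PD1 left 20.7% of the tested ligands without overlap, beside 25.5% of all genes, and the nanocapsule 3.45%, beside 14.3%. Set against anti-PD1, the nanocapsule left 24.1% of the ligands without overlap, beside 33.3% of all genes. By this count of both directions the family did not exceed the table in any comparison. Taken by direction, the anti-PD1 lungs lay above the PBS lungs for 17.2% of the ligands, beside 12.1% of all genes, and below for 3.45%, beside 13.4%. At an unadjusted limma p under 0.05 the 3 comparisons had 20.7%, 0% and 27.6% of the ligands, beside 16.5%, 10.1% and 27.7% of all genes. Among the groups, anti-PD1 had the highest mean for 19 of the 29 tested ligands, the nanocapsule for 4 and PBS for 6. The lowest mean was in the nanocapsule lungs for 16, in the anti-PD1 lungs for 5 and in the PBS lungs for 8. These counts of means have no share of all genes beside them, so they do not set the ligands apart. The log2 differences of the whole table leaned the same way. Of all genes, 56.9% were higher in anti-PD1 than in PBS lungs, and 70.8% were lower in nanocapsule than in anti-PD1 lungs. Single lungs took part unequally, in counts again without a share of all genes. Nanocapsule lung 2 was the lowest library for 11 tested ligands, and anti-PD1 lung 3 was the highest for 9. The same lungs held the fewest and the most genes at 1 TPM or more, 12194 and 13407.

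**Figure D2:**
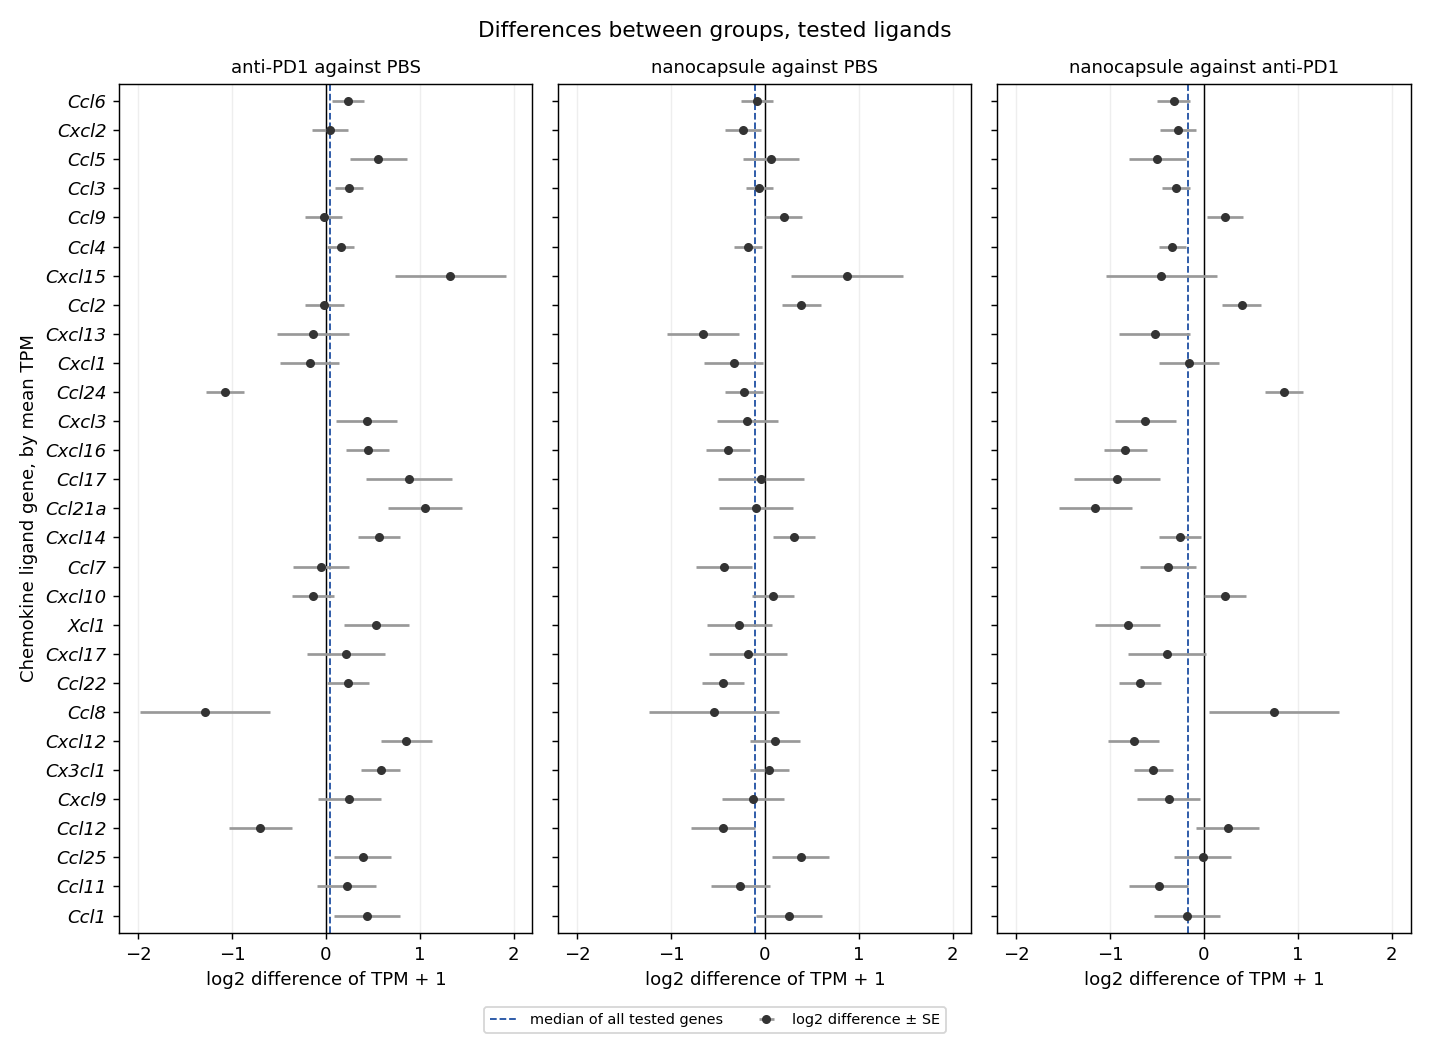
Log2 difference of TPM + 1 with its standard error for each tested ligand in the 3 comparisons, with a dashed line at the median of all 13248 tested genes. Ccl24 lies at -1.08 for anti-PD1 against PBS and at 0.85 for the nanocapsule against anti-PD1, most points lie left of 0 for the nanocapsule against anti-PD1, and no ligand passed an adjusted p under 0.05.

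Ccl24, or eotaxin-2, attracts eosinophils through CCR3 and is made in the mouse lung by macrophages. It was the ligand with the smallest limma p in both comparisons that involve anti-PD1. Ccl24 (ENSMUSG00000004814, chr5:135569937-135573049 on the minus strand) had 14.2, 12.3 and 9.24 TPM in nanocapsule lungs, 5.82, 6.99 and 5.43 TPM in anti-PD1 lungs and 12.3, 18.7 and 11.6 TPM in PBS lungs. The 3 anti-PD1 lungs were the lowest of the 9, and the nanocapsule and PBS lungs overlapped. For anti-PD1 against PBS the log2 difference was -1.08 (limma SE 0.20, adjusted p = 0.211). For the nanocapsule against anti-PD1 it was 0.85 (limma SE 0.20, adjusted p = 0.0723), and for the nanocapsule against PBS it was -0.22 (limma SE 0.20, adjusted p = 0.709).

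The nanocapsule against anti-PD1 difference of Ccl24 kept its sign under every alternative run, at 0.72 to 1.03, and its limma adjusted p ranged from 0.0273 to 0.230. The lowest of these came when PBS lung 2 was left out of the shared estimate of the spread. That run called 962 of all 13248 genes in this comparison, against 14 with all lungs. With these 2 groups fitted alone the limma adjusted p was 0.0433, in a run that called 476 genes. Without PBS lung 2 the anti-PD1 against PBS difference was -0.88 (limma adjusted p = 0.569).

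Eosinophil markers stood beside this ligand as follows. Of 6 markers, 5 were tested, and Epx, which encodes eosinophil peroxidase, was near 0 at 0.317 to 1.85 TPM over the 9 lungs. Summed TPM of the list was 70.5 to 104 TPM in nanocapsule lungs, 78.5 to 102 TPM in anti-PD1 lungs and 117 to 147 TPM in PBS lungs, with the nanocapsule and anti-PD1 lungs all below the PBS lungs. Prg2, which encodes the eosinophil major basic protein, was at 10.2 to 12.6 TPM in nanocapsule lungs, 3.49 to 9.06 TPM in anti-PD1 lungs, 27.6 to 47.1 TPM in PBS lungs. The PBS lungs were the highest for Prg2 and the anti-PD1 lungs the lowest, with no overlap between any groups. The list as a whole did not share this order. For the nanocapsule against anti-PD1, 3 of its 5 tested markers had log2 differences above 0 and 2 below, with a median of 0.07. Ear6, another marker of the list, overlapped between these groups, at 12.9 to 17.2 TPM in nanocapsule and 7.75 to 15.1 TPM in anti-PD1 lungs. The list holds Siglecf, which alveolar macrophages also express, and Ccr3, the receptor of Ccl24. Alveolar macrophage markers (9 of 10 in the table, all 9 tested) summed to 1599 to 2595 TPM in nanocapsule lungs, 2926 to 3510.3 TPM in anti-PD1 lungs and 1784 to 2846 TPM in PBS lungs. The part of either cell type in the Ccl24 values was not tested.

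The other eotaxin, Ccl11, which also acts on CCR3, was low, at 1.09, 0.162 and 1.12 TPM in nanocapsule lungs, 0.850, 1.26 and 2.36 TPM in anti-PD1 lungs and 1.06, 0.641 and 1.62 TPM in PBS lungs, with overlapping groups. Ccl17 and Ccl22 act on CCR4 of T helper type 2 and regulatory T cells and are made mainly by dendritic cells and macrophages. Ccl22 had 2.80, 2.61 and 3.33 TPM in nanocapsule lungs, 5.11, 4.52 and 6.27 TPM in anti-PD1 lungs and 5.39, 2.73 and 5.32 TPM in PBS lungs. Every nanocapsule lung was below every anti-PD1 lung, with a log2 difference of -0.68 (limma SE 0.22, adjusted p = 0.106), while the nanocapsule and PBS lungs overlapped through PBS lung 2, with a log2 difference of -0.45 (limma SE 0.22, adjusted p = 0.518). Without PBS lung 2, where 962 genes of the table were called, the limma adjusted p of the nanocapsule against anti-PD1 difference was 0.0385. Over all alternatives it ranged from 0.0385 to 0.299. Ccl17 had 8.70, 3.38 and 7.04 TPM in nanocapsule lungs, 8.96, 13.1 and 15.7 TPM in anti-PD1 lungs and 14.9, 3.50 and 4.23 TPM in PBS lungs. The nanocapsule lungs were again all below the anti-PD1 lungs, and PBS lung 1 was well above the other PBS lungs.

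Together, the 4 tested ligands of CCR3 and CCR4 had 3 log2 differences above 0 and 1 below for anti-PD1 against PBS, 0 above and 4 below for the nanocapsule against PBS, and 1 above and 3 below for the nanocapsule against anti-PD1. Of all genes, 56.9%, 28.8% and 29.2% were above 0 in these 3 comparisons. For the nanocapsule against PBS, Ccl17 was above 0 under median-of-ratios scaling. Limma called 0 of the 4 in each comparison, with 1, 0 and 2 at an unadjusted p under 0.05, beside 16.5%, 10.1% and 27.7% of all genes. Dendritic cell markers (6 of 7 tested) summed to 40.6 to 61.3 TPM in nanocapsule lungs, 61.8 to 93.5 TPM in anti-PD1 lungs and 61.4 to 94.5 TPM in PBS lungs, and the cross-presenting cell receptor Xcr1 was the marker under the filter. Every nanocapsule lung was below every other lung for this sum, but the highest nanocapsule lung (61.3 TPM) lay close to the lowest PBS lung (61.4 TPM). In every lung most of the sum was 1 gene, Ccr7. It had 28.95 to 45.12 TPM in nanocapsule lungs, 40.03 to 72.01 TPM in anti-PD1 lungs and 49.27 to 74.98 TPM in PBS lungs. For Ccr7 alone the nanocapsule and anti-PD1 lungs overlapped. The part of dendritic cells in the Ccl17 and Ccl22 values was not tested.

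Neutrophil attractants with the glutamate-leucine-arginine motif (ELR) act on CXCR2. Upstream of the start sites of Cxcl1, Cxcl2 and Cxcl3, the GRCm38.p6 reference holds the consensus NF-kB motif, the binding site of the factor that drives inflammatory genes, and these promoters are shown because the same site stands before genes of very different level. Each is the 220 bases before the RefSeq start on the gene's strand, from the C57BL/6J reference and not read from the BALB/c mice, with matches in capitals, where overlapping matches are joined.
Cxcl1, chr5:90891025-90891244, plus strand: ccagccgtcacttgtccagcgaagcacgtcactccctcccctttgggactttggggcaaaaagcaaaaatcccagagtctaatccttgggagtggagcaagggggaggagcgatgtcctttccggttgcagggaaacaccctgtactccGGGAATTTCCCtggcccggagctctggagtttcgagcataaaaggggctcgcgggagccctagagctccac
Cxcl2, chr5:90903679-90903898, plus strand: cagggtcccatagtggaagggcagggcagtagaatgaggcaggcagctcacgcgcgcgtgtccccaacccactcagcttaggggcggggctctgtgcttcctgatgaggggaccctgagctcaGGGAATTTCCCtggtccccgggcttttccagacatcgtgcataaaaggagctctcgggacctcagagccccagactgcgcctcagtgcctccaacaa
Cxcl3, chr5:90785881-90786100, plus strand: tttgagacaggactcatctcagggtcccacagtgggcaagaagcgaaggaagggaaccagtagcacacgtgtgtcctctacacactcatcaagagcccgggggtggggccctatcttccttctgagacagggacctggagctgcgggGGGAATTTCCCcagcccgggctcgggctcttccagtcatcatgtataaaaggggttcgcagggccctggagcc
The capitals begin 71 bases before the start of Cxcl1, 97 before that of Cxcl2 and 73 before that of Cxcl3, and in all 3 they spell the same 11 bases. The 27 members that have a promoter entry hold 33 windows of 300 bases, 250 before the start and 50 after it. Searched on both strands, the motif was in 7 of the 33 windows (Ccl20, Ccl27a, Ccl9, Cxcl1, Cxcl2, Cxcl3 and Cxcl10). It was in 4.51% of all 32851 RefSeq promoter windows. The Ccl27a match begins at base 281 of its window, after the start. A match is a description of letters and not a measured site.

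Cxcl2 had 612, 457 and 836 TPM in nanocapsule lungs, 825, 654 and 769 TPM in anti-PD1 lungs and 651, 761 and 769 TPM in PBS lungs. Its groups overlapped, nanocapsule lung 2 was the lowest, and the anti-PD1 and PBS means were close, with a log2 difference of 0.04 (limma SE 0.19, adjusted p = 0.940). For the nanocapsule it was -0.27 (limma SE 0.19, adjusted p = 0.355) against anti-PD1 and -0.23 (limma SE 0.19, adjusted p = 0.683) against PBS. Cxcl1, with the same 11 bases in its promoter, had 8.95, 6.56 and 12.8 TPM in nanocapsule lungs, 12.6, 6.53 and 13.1 TPM in anti-PD1 lungs and 17.0, 11.3 and 8.32 TPM in PBS lungs. Cxcl3 had 7.46, 3.72 and 11.2 TPM in nanocapsule lungs, 9.76, 11.2 and 12.5 TPM in anti-PD1 lungs and 9.995, 5.25 and 9.47 TPM in PBS lungs. Both overlapped between all groups, and both stood far below Cxcl2 in every lung. Some 7.59% of the 31-base stretches of Cxcl2 transcripts recur in transcripts of Cxcl3, and 4.56% of those of Cxcl3 recur in Cxcl2. The split of reads from these stretches is uncertain, and this weighs more on Cxcl3, the far lower gene of the pair. Cxcl5, an epithelial attractant of neutrophils, was at 0 to 0.209 TPM and was not tested.

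Cxcl15, or lungkine, is a mouse neutrophil attractant made by lung epithelium. It had 115, 20.3 and 34.7 TPM in nanocapsule lungs, 47.7, 45.5 and 98.7 TPM in anti-PD1 lungs and 27.9, 12.1 and 36.9 TPM in PBS lungs. The anti-PD1 lungs all lay above the PBS lungs, while nanocapsule lung 1 was the highest of the 9 and the other nanocapsule lungs were within the PBS range. The log2 difference was 1.33 (limma SE 0.59, adjusted p = 0.299) for anti-PD1 against PBS and 0.87 (limma SE 0.59, adjusted p = 0.618) for the nanocapsule against PBS. Leaving out nanocapsule lung 1 brought the nanocapsule difference to 0.18 (limma adjusted p = 0.930). Markers of alveolar type 2 cells, the surfactant-making epithelium (6 of 6 tested), summed to 4092, 768 and 1124 TPM in nanocapsule lungs, 1801, 1571 and 3959 TPM in anti-PD1 lungs and 1007, 442 and 1259.9 TPM in PBS lungs. Nanocapsule lung 1 and anti-PD1 lung 3 were highest for both the sum and Cxcl15, and PBS lung 2 was lowest for both. The part of epithelial content in the Cxcl15 values was not tested.

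Cxcl9, Cxcl10 and Cxcl11 are induced by interferons and attract activated T and NK cells through CXCR3. The Cxcl10 promoter is shown because it is the only 1 of the 27 with both the interferon-stimulated response element, searched as GAAA, any 2 bases and GAAA on both strands, and the consensus NF-kB motif. The 220 bases before its RefSeq start in GRCm38.p6 are given with matches in capitals.
Cxcl10, chr5:92348890-92349109, minus strand: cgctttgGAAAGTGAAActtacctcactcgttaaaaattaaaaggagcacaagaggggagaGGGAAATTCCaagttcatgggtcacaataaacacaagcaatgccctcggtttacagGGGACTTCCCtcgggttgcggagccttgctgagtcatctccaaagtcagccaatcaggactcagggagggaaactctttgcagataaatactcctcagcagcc
The interferon element begins 213 bases before the start, and NF-kB matches begin 159 and 103 bases before it. The interferon element was in 3 of the 33 windows of members (Ccl19, Cxcl10 and Cxcl14) and in 3.44% of all promoter windows.

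Cxcl10 had 7.15, 5.62 and 8.25 TPM in nanocapsule lungs, 4.23, 8.36 and 5.37 TPM in anti-PD1 lungs and 7.79, 6.14 and 5.64 TPM in PBS lungs. Groups overlapped, and each spanned less than 2-fold. Cxcl9 was lower still, at 2.03, 1.22 and 1.04 TPM in nanocapsule lungs, 4.19, 1.98 and 0.937 TPM in anti-PD1 lungs and 2.25, 1.49 and 1.21 TPM in PBS lungs. Anti-PD1 lung 1 was the highest and anti-PD1 lung 3 the lowest of the 9, so the anti-PD1 range covered the other groups. Its log2 difference was 0.25 (limma SE 0.33, adjusted p = 0.745) for anti-PD1 against PBS, -0.13 (limma SE 0.33, adjusted p = 0.916) for the nanocapsule against PBS and -0.38 (limma SE 0.33, adjusted p = 0.466) for the nanocapsule against anti-PD1. Without anti-PD1 lung 1 the first of these was -0.12, and without PBS lung 1 the second was 0.03. Cxcl11 was at 0.0457 to 0.915 TPM and was not tested. Ifng, which encodes the interferon that induces all 3, had 2.21, 2.52 and 1.12 TPM in nanocapsule lungs, 3.36, 3.60 and 3.65 TPM in anti-PD1 lungs and 2.50, 4.99 and 2.37 TPM in PBS lungs, with the nanocapsule lungs all below the anti-PD1 lungs.

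**Figure D3:**
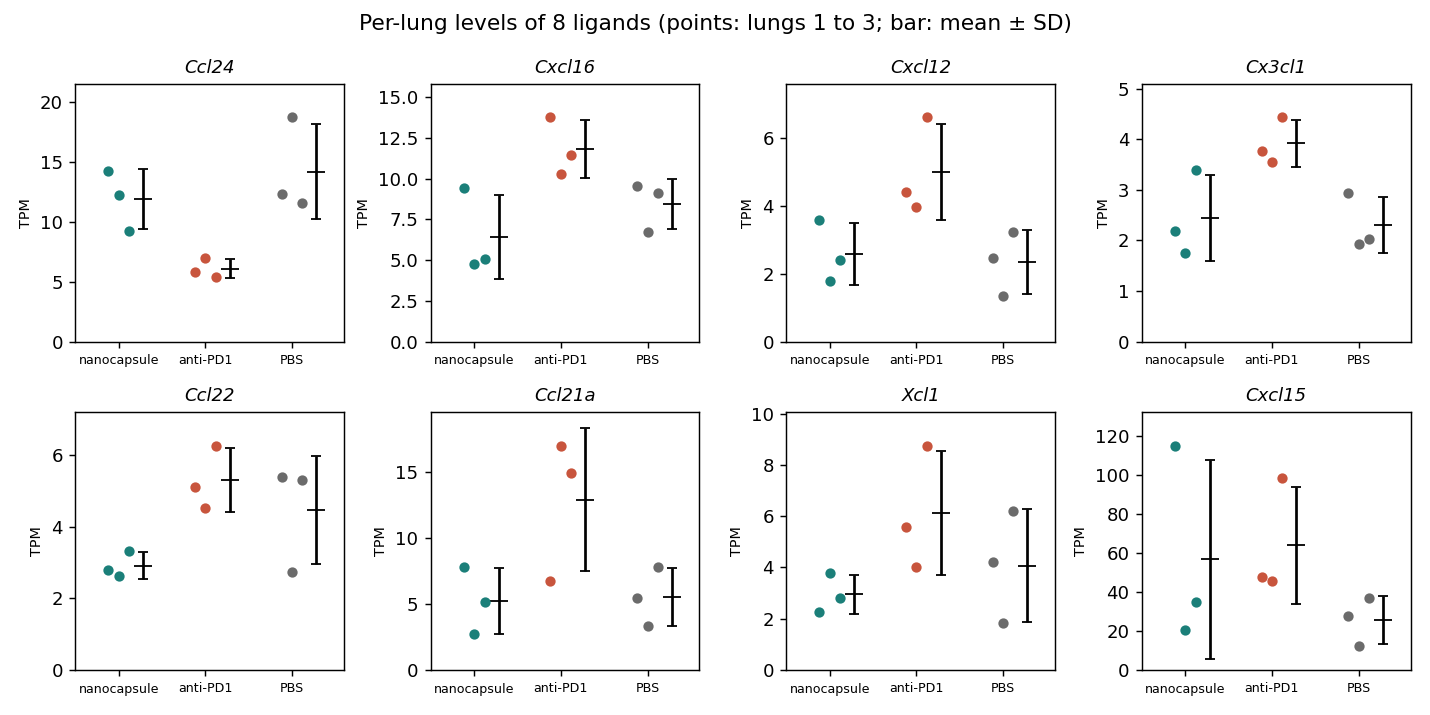
TPM of 8 chemokine ligands in each lung by group, on linear axes that start at 0, with a bar at the group mean ± SD (n = 3). Ccl24 is lowest in the 3 anti-PD1 lungs, at 5.43 to 6.99 TPM, and Cxcl16, Ccl22 and Cxcl12 are lower in all 3 nanocapsule lungs than in any anti-PD1 lung.

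The most abundant set was the macrophage inflammatory protein type, which attracts monocytes, macrophages and lymphocytes. Ccl5, made largely by T and NK cells, had 336, 145 and 159 TPM in nanocapsule lungs, 195, 338 and 333 TPM in anti-PD1 lungs and 178, 205 and 187 TPM in PBS lungs. Nanocapsule lung 1 stood at the level of anti-PD1 lungs 2 and 3, and the other 6 lungs lay between 145 and 205 TPM. NK cell markers (6 of 6 tested) summed to 215, 124 and 117 TPM in nanocapsule lungs, 172, 244 and 237 TPM in anti-PD1 lungs and 131, 159 and 164 TPM in PBS lungs. The same 3 lungs were the highest for Ccl5 and for this sum. Most of the sum was 1 gene, Gzma, at 163 TPM in nanocapsule lung 1 and 176 and 164 TPM in anti-PD1 lungs 2 and 3. The part of NK cells in the Ccl5 values was not tested.

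Ccl3, an attractant of monocytes and T cells, had 113, 102 and 153 TPM in nanocapsule lungs, 136, 143 and 169 TPM in anti-PD1 lungs and 137, 120.2 and 120.4 TPM in PBS lungs. Its close relative Ccl4 had 72.8, 67.1 and 65.1 TPM in nanocapsule lungs, 67.5, 106 and 90.1 TPM in anti-PD1 lungs and 73.8, 84.9 and 73.7 TPM in PBS lungs. All 3 nanocapsule lungs were below all 3 PBS lungs for Ccl4, by less than 1 TPM between the nearest lungs. Ccl9, a mouse ligand of CCR1 from myeloid cells, had 92.8, 169 and 149 TPM in nanocapsule lungs, 116, 127 and 98.7 TPM in anti-PD1 lungs and 122, 105 and 119.5 TPM in PBS lungs, with nanocapsule lungs at both the top and the bottom of the 9. Of the 5 tested members of this set, 4 had log2 differences above 0 and 1 below for anti-PD1 against PBS, 2 above and 3 below for the nanocapsule against PBS, and 1 above and 4 below for the nanocapsule against anti-PD1. Above 0 were 56.9%, 28.8% and 29.2% of all genes in these 3 comparisons. Limma called 0 of the set, with 0, 0 and 1 at an unadjusted p under 0.05, beside 16.5%, 10.1% and 27.7% of all genes. Ccl3 and Ccl6 were above 0 for the nanocapsule against PBS under median-of-ratios scaling.

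Ccl2, Ccl7 and Ccl12 recruit monocytes through CCR2, and Ccl8 is their relative, a ligand of CCR8 in the mouse. Ccl2 had 38.2, 29.6 and 40.1 TPM in nanocapsule lungs, 29.5, 19.4 and 33.2 TPM in anti-PD1 lungs and 32.4, 27.5 and 22.1 TPM in PBS lungs. The groups overlapped, with a log2 difference of 0.39 (limma SE 0.21, adjusted p = 0.545) for the nanocapsule against PBS. Ccl7 had 4.29, 6.01 and 6.09 TPM in nanocapsule lungs, 9.06, 4.64 and 9.18 TPM in anti-PD1 lungs and 11.4, 7.73 and 4.98 TPM in PBS lungs, and its log2 difference for the nanocapsule against PBS was -0.43 (limma SE 0.30, adjusted p = 0.621). Ccl12 had 1.20, 0.837 and 1.60 TPM in nanocapsule lungs, 1.32, 1.12 and 0.259 TPM in anti-PD1 lungs and 0.883, 2.21 and 3.40 TPM in PBS lungs. Ccl8 had 4.52, 1.71 and 2.37 TPM in nanocapsule lungs, 1.26, 0 and 3.74 TPM in anti-PD1 lungs and 1.47, 14.7 and 3.01 TPM in PBS lungs, and PBS lung 2 alone was far above the rest. All 4 had lower fitted values in the anti-PD1 than in the PBS lungs, beside 43.1% of all genes. For the nanocapsule against PBS 1 was higher and 3 were lower, beside 71.2% of all genes that were lower. In both comparisons limma called 0, with 0 at an unadjusted p under 0.05, beside 16.5% and 10.1% of all genes.

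Lymphoid and homeostatic ligands position lymphocytes and progenitor cells. Cxcl12, which retains cells through CXCR4, had 3.57, 1.79 and 2.39 TPM in nanocapsule lungs, 4.41, 3.96 and 6.60 TPM in anti-PD1 lungs and 2.47, 1.36 and 3.22 TPM in PBS lungs. The 3 anti-PD1 lungs were the highest of the 9. Its log2 difference was 0.86 (limma SE 0.27, adjusted p = 0.219) for anti-PD1 against PBS and -0.75 (limma SE 0.27, adjusted p = 0.125) for the nanocapsule against anti-PD1. Blood endothelial markers (6 of 6 tested) summed to 36.4 to 81.8 TPM in nanocapsule lungs, 112 to 196 TPM in anti-PD1 lungs and 37.4 to 84.2 TPM in PBS lungs, with the anti-PD1 lungs also the highest 3 of the 9 for this sum. Fibroblast markers (6 of 6 tested) summed to 93.0 to 149 TPM in nanocapsule lungs, 109.8 to 286 TPM in anti-PD1 lungs and 103 to 264 TPM in PBS lungs. The part of either cell type in the Cxcl12 values was not tested.

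Ccl21a guides dendritic and T cells through CCR7 and is made by lymphatic endothelium and lymphoid stroma. It had 7.79, 2.76 and 5.14 TPM in nanocapsule lungs, 6.77, 17.0 and 15.0 TPM in anti-PD1 lungs and 5.46, 3.36 and 7.81 TPM in PBS lungs. Anti-PD1 lungs 2 and 3 stood above the other 7 lungs, which overlapped. The log2 difference was 1.06 (limma SE 0.39, adjusted p = 0.244) for anti-PD1 against PBS and -1.15 (limma SE 0.39, adjusted p = 0.113) for the nanocapsule against anti-PD1. Some 80.6% of its 31-base transcript stretches recur in other genes, such as Gm21541, so the gene's own level is uncertain. Of 4 lymphatic endothelial markers 2 were tested, Prox1 was near 0 at 0.0678 to 0.338 TPM, and the list summed to 7.28 to 9.86 TPM in nanocapsule lungs, 8.69 to 20.2 TPM in anti-PD1 lungs and 8.16 to 14.9 TPM in PBS lungs. The part of lymphatic endothelium in the Ccl21a values was not tested.

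Cxcl13, which draws B cells into follicles through CXCR5, had 11.8, 19.1 and 24.8 TPM in nanocapsule lungs, 37.7, 14.9 and 31.1 TPM in anti-PD1 lungs and 44.3, 19.8 and 27.0 TPM in PBS lungs. The groups overlapped, with a log2 difference of -0.66 (limma SE 0.38, adjusted p = 0.568) for the nanocapsule against PBS. Its receptor Cxcr5 is described with the receptors. Ccl19, the second ligand of CCR7, was at 0 to 0.419 TPM and was not tested.

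The membrane-anchored ligands Cxcl16 and Cx3cl1, which can tether leukocytes before they are shed, and the lymphocyte product Xcl1 form a last set. For the nanocapsule against anti-PD1, all 3 had every nanocapsule lung below every anti-PD1 lung, beside 24.6% of all genes. Limma called 0 of them, and 3 were lower at an unadjusted p under 0.05, beside 21.0% of all genes. Cxcl16, made by macrophages and endothelium and read by CXCR6, had 9.40, 4.76 and 5.09 TPM in nanocapsule lungs, 13.8, 10.3 and 11.5 TPM in anti-PD1 lungs and 9.53, 6.70 and 9.13 TPM in PBS lungs. The anti-PD1 lungs were the highest 3 of the 9. Its log2 difference was -0.84 (limma SE 0.23, adjusted p = 0.0861) for the nanocapsule against anti-PD1 and -0.39 (limma SE 0.23, adjusted p = 0.577) for the nanocapsule against PBS. Over the alternatives the limma adjusted p of the first ranged from 0.0366 to 0.256. Some 18.5% of its 31-base transcript stretches recur in other transcripts, those of the gene Zmynd15, which was at 0.531 to 2.44 TPM. The alveolar macrophage sum given above was also highest in the 3 anti-PD1 lungs, and its part in the Cxcl16 values was not tested.

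Cx3cl1, the fractalkine of endothelium and epithelium, had 2.18, 1.75 and 3.39 TPM in nanocapsule lungs, 3.78, 3.55 and 4.44 TPM in anti-PD1 lungs and 2.94, 1.94 and 2.02 TPM in PBS lungs. The anti-PD1 lungs were again the highest 3. Its log2 difference was 0.58 (limma SE 0.21, adjusted p = 0.235) for anti-PD1 against PBS and -0.54 (limma SE 0.21, adjusted p = 0.141) for the nanocapsule against anti-PD1. Xcl1, a product of NK and CD8 T cells for dendritic cells that carry XCR1, had 2.28, 3.78 and 2.82 TPM in nanocapsule lungs, 5.59, 4.03 and 8.77 TPM in anti-PD1 lungs and 4.20, 1.81 and 6.22 TPM in PBS lungs. Its lowest anti-PD1 lung was just above its highest nanocapsule lung, and PBS lung 2 was the lowest of the 9. T cell markers (8 of 8 tested) summed to 217 to 255 TPM in nanocapsule lungs, 242 to 727 TPM in anti-PD1 lungs and 264 to 562 TPM in PBS lungs. Cxcl12 and Cx3cl1 share the order of anti-PD1 over the other groups with the blood endothelial sum given above, and the part of any cell type in the values of these 3 ligands was not tested.

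Epithelial and mucosal ligands were low. Cxcl14, a homeostatic product of epithelium and stroma, had 7.35, 6.35 and 8.58 TPM in nanocapsule lungs, 6.50, 9.15 and 12.1 TPM in anti-PD1 lungs and 5.04, 4.97 and 7.51 TPM in PBS lungs. All 3 groups overlapped, and the log2 difference was 0.57 (limma SE 0.22, adjusted p = 0.260) for anti-PD1 against PBS. Cxcl17, a mucosal chemokine of the airways, had 5.55, 2.45 and 2.73 TPM in nanocapsule lungs, 3.85, 5.52 and 5.05 TPM in anti-PD1 lungs and 6.37, 1.33 and 6.14 TPM in PBS lungs. Ccl25, the ligand of CCR9 known from thymus and small intestine, had 1.20, 2.69 and 0.445 TPM in nanocapsule lungs, 1.03, 1.45 and 1.41 TPM in anti-PD1 lungs and 0.640, 0.998 and 0.609 TPM in PBS lungs. For Ccl25 the anti-PD1 lungs lay just above the PBS lungs without overlap, and nanocapsule lungs were both the highest and the lowest. All 3 had positive differences for anti-PD1 against PBS, beside 56.9% of all genes. All 3 had negative differences for the nanocapsule against anti-PD1, beside 70.8%, where Ccl25 turned positive under median-of-ratios scaling and without S100a8 and S100a9. Limma called 0 of the 3 for anti-PD1 against PBS, with 1 at an unadjusted p under 0.05, beside 16.5% of all genes.

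Ccl1, a ligand of CCR8, was the tested member nearest the filter, with 3 lungs at 1 TPM or more and a range of 0 to 1.31 TPM. Just outside it was Ccl27a, a CCR10 ligand of skin epithelium, with 1 lung at 1 TPM or more and a range of 0 to 1.12 TPM. The other 8 untested members were Ccl19, Ccl20, Ccl21b, Ccl26, Ccl27b, Ccl28, Cxcl5 and Cxcl11. Of these, Ccl26 and Ccl27b were at 0 TPM in all 9 lungs, Ccl21b was above 0 in nanocapsule lung 3 only, at 0.569 TPM, and Ccl20, the ligand of CCR6, did not exceed 0.459 TPM. All 31-base transcript stretches of Ccl21b and Ccl27b recur in other genes, as do 58.8% of those of Ccl19, 57.0% of Ccl27a, 42.2% of Cxcl11 and 14.2% of Xcl1, so these levels are uncertain.

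On the receptor side, 19 of 23 listed receptors were tested, and Ccr10, Xcr1, Ackr1 and Ackr4 did not pass the filter. Limma called 0 receptors in each comparison. At an unadjusted limma p under 0.05, 2 had higher and 5 lower values for anti-PD1 against PBS, beside 8.48% and 8.06% of all genes. For the nanocapsule against PBS 1 was higher and 6 were lower, beside 1.22% and 8.92%. The nanocapsule had 4 higher and 4 lower when set against anti-PD1, beside 6.69% and 21.0%. Median log2 differences over the tested receptors were -0.10, -0.37 and -0.34 in these 3 comparisons, beside 0.04, -0.11 and -0.17 over all tested genes.

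The most abundant receptor was Cxcr2, the receptor of the ELR ligands, with 595, 683 and 812 TPM in nanocapsule lungs, 529, 583 and 433 TPM in anti-PD1 lungs and 661, 888 and 641 TPM in PBS lungs. The nanocapsule lungs were all above the anti-PD1 lungs, as they were for the sum of the 8 neutrophil markers, of which Cxcr2 is 1, and the part of neutrophils in these values was not tested. The means of its ligands Cxcl1, Cxcl2 and Cxcl3 were lower in nanocapsule than in anti-PD1 lungs, with overlap for all 3, and the log2 difference of Cxcl1 was above 0 under median-of-ratios scaling. Cxcr4, the receptor of Cxcl12, averaged 305 ± 62.7 TPM in nanocapsule lungs, 317 ± 19.0 TPM in anti-PD1 lungs and 344 ± 17.1 TPM in PBS lungs (SD, n = 3 each). Ccr1, which binds Ccl3, Ccl5, Ccl6 and Ccl9, averaged 272 ± 43.1 TPM in nanocapsule lungs, 233 ± 30.4 TPM in anti-PD1 lungs and 304 ± 50.04 TPM in PBS lungs (SD, n = 3 each).

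Ccr3, the receptor of Ccl24, had 1.83, 1.86 and 2.87 TPM in nanocapsule lungs, 1.72, 3.27 and 1.32 TPM in anti-PD1 lungs and 4.12, 5.31 and 3.44 TPM in PBS lungs. All anti-PD1 lungs and all nanocapsule lungs were below all PBS lungs, whereas for Ccl24 the anti-PD1 lungs alone were below. The log2 difference of Ccr3 was -0.80 (limma SE 0.25, adjusted p = 0.217) for anti-PD1 against PBS. Cxcr6, the receptor of Cxcl16, had 5.52, 2.25 and 3.35 TPM in nanocapsule lungs, 7.31, 5.605 and 9.59 TPM in anti-PD1 lungs and 3.57, 2.48 and 3.58 TPM in PBS lungs. The anti-PD1 lungs were the highest 3 of the 9 for the receptor as for its ligand, and the log2 difference of Cxcr6 for anti-PD1 against PBS was 1.0 (limma SE 0.27, adjusted p = 0.211).

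Cx3cr1, the receptor of Cx3cl1 on monocytes and macrophages, had 15.2, 15.9 and 23.5 TPM in nanocapsule lungs, 12.3, 15.3 and 11.7 TPM in anti-PD1 lungs and 10.8, 12.5 and 8.69 TPM in PBS lungs. Its nanocapsule lungs were all above the PBS lungs, with a log2 difference of 0.71 (limma SE 0.19, adjusted p = 0.363), while nanocapsule and PBS lungs overlapped for the ligand. Cxcr5, the receptor of Cxcl13 on B cells, had 11.4, 9.48 and 11.9 TPM in nanocapsule lungs, 18.5, 11.1 and 13.5 TPM in anti-PD1 lungs and 19.6, 19.1 and 22.6 TPM in PBS lungs. Its nanocapsule lungs were all below the PBS lungs, with a log2 difference of -0.85 (limma SE 0.17, adjusted p = 0.317). B cell markers, among which Cxcr5 is listed (6 of 6 tested), summed to 175 to 239 TPM in nanocapsule lungs, 301 to 495 TPM in anti-PD1 lungs and 296 to 530.5 TPM in PBS lungs, and their part in the Cxcr5 values was not tested.

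Cxcr3, the receptor of Cxcl9 and Cxcl10 on effector T and NK cells, had 3.65, 3.04 and 3.73 TPM in nanocapsule lungs, 8.46, 4.99 and 6.87 TPM in anti-PD1 lungs and 5.36, 4.66 and 7.50 TPM in PBS lungs. The nanocapsule lungs were the lowest 3 of the 9, with a log2 difference of -0.78 (limma SE 0.21, adjusted p = 0.0815) against anti-PD1. Ackr2, which scavenges inflammatory CC chemokines, had 0.747, 0.285 and 0.720 TPM in nanocapsule lungs, 1.91, 1.87 and 2.79 TPM in anti-PD1 lungs and 1.28, 0.567 and 1.31 TPM in PBS lungs. The anti-PD1 lungs were the highest 3, with a log2 difference of -1.01 (limma SE 0.23, adjusted p = 0.0678) for the nanocapsule against anti-PD1. Without PBS lung 2, where 962 genes of the table were called, the limma adjusted p was 0.0295 for Ackr2 and 0.0482 for Cxcr3 in this comparison.

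**Figure D4:**
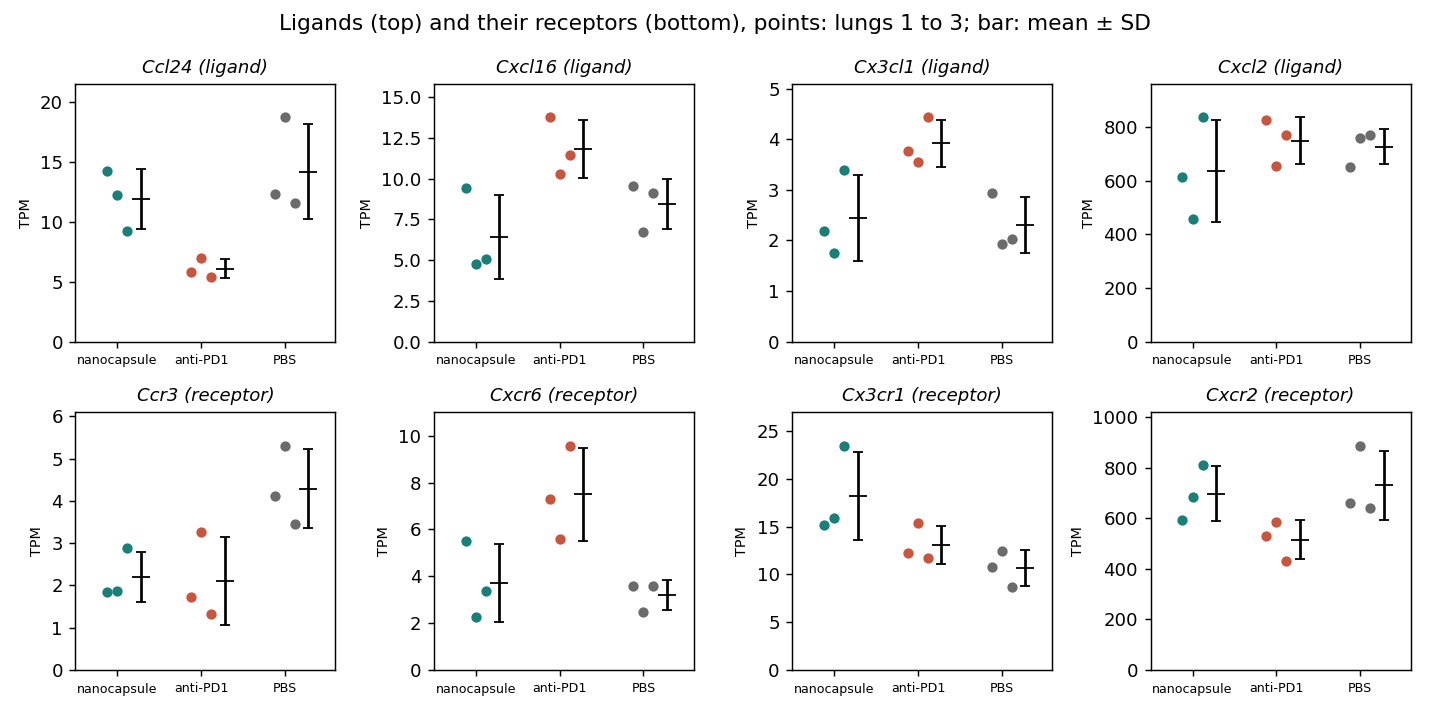
TPM of 4 ligands in the upper panels and of their receptors in the lower panels, for each lung by group on linear axes that start at 0, with a bar at the group mean ± SD (n = 3). Anti-PD1 lungs are highest for both Cxcl16 and Cxcr6, and PBS lungs are highest for Ccr3 while Ccl24 is lowest in the anti-PD1 lungs.

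Of 16 listed cytokines and signalling genes upstream of the ligands, 15 were tested, Il17a was below the filter, and limma called 0 in each comparison. At an unadjusted limma p under 0.05 there were 0 for anti-PD1 against PBS, beside 16.5% of all genes. There were 3 for the nanocapsule against PBS, beside 10.1%, and 4 for the nanocapsule against anti-PD1, beside 27.7%. Il1b, whose product induces the ELR ligands, averaged 3468 ± 777 TPM in nanocapsule lungs, 3700.2 ± 828 TPM in anti-PD1 lungs and 3971 ± 548 TPM in PBS lungs (SD, n = 3 each). The platelet chemokines left out of the family were at 20.3 to 26.2 TPM in nanocapsule lungs, 28.5 to 65.3 TPM in anti-PD1 lungs, 24.1 to 39.8 TPM in PBS lungs for Pf4 and 6.48 to 7.20 TPM in nanocapsule lungs, 10.4 to 20.4 TPM in anti-PD1 lungs, 5.28 to 12.7 TPM in PBS lungs for Ppbp.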

How the data were processed

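Polyadenylated RNA of 9 lungs, 3 per group, was sequenced, per the labels' protocols. The deposited values are gene-level TPM, a length-corrected share of the library that the authors scaled to the same sum in each column. Per the submitters' processing notes, DESeq2 is named with no role and GRCm38 as the build. Versions and alignment settings are not given in the sources used here. These values keep no depth, so it was unknown and no count test was applied.

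Genes that reached 1 TPM in 3 or more of the 9 lungs were tested on the scale log2(TPM + 1) with limma 3.58.1 (R 4.3.3). The variance followed an intensity trend, and all 3 groups shared its estimate, with 6 residual degrees of freedom. A pseudocount of 1 understates the differences of low genes. Tests were two-sided, with Benjamini-Hochberg adjustment over all 13248 tested genes in each comparison and a call at an adjusted p under 0.05. A difference is the first-named group minus the second, with the standard error (SE) of the fit, and an unadjusted p is the same test before adjustment. An exact permutation test of 3 lungs against 3 cannot go below p = 0.1. The fit was tested on simulated data with noise drawn independently for each gene and lung, so shifts shared across a library were not covered.

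The members, the role groups, the receptor and marker lists and the tests were chosen with earlier results of these data known. Values per lung are given for the 6 ligands with the smallest p in each comparison, the 10 with the highest mean, Ccl24, Cxcl9 and Cxcl2, and the tested members of their role groups. Of the receptors, the 2 with the smallest p in each comparison and the 3 with the highest mean are named. Other genes named with values, such as Ifng, Il1b and Prg2, were chosen from the lists after their values were seen.

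Positions came from GENCODE M21 on GRCm38, in which all 38 members were matched by gene identifier. Promoters came from RefSeq on GRCm38.p6, with entries for 27 members matched by symbol. Stretches of 31 bases shared between transcripts of different genes were counted in GENCODE M21. Alternatives covered the pseudocount, the filter, the scaling, the variance trend, the groups fitted together, the replicate number as a block and the omission of each lung.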

Additional observations from a re-analysis of the deposited data

How the results depend on the processing

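Single changes to the processing were run: pseudocount 0.1, no filter or a mean of at least 2 TPM, median-of-ratios scaling, renormalisation without S100a8 and S100a9, no variance trend, 2 groups fitted alone, the replicate number as a block, and the omission of each lung. Cxcl9, which averaged under 2 TPM, gave no value at the mean filter. For anti-PD1 against PBS and for the nanocapsule against PBS, 0 ligands and 0 receptors were called by limma under each of these. For the nanocapsule against anti-PD1, 1 ligand (Ccl24) and 1 receptor (Ackr2) were called with these 2 groups fitted alone. Same-numbered lungs deviated from their group means with correlations of -0.182 to 0.279, and differently numbered lungs with -0.258 to 0.225. The highest were same-numbered, at 0.279 for anti-PD1 and PBS lungs 2 and 0.278 for anti-PD1 and PBS lungs 3. These overlapping ranges cannot settle whether lungs were paired, and the numbers were not taken as pairs. With the replicate number as a block, 3 ligands (Ccl24, Cxcl16 and Ccl22) and 4 receptors (Ackr2, Ccr8, Cxcr3 and Cxcr6) were called, among 1095 genes of the table, against 14 without the block. Omission of a lung gave 0 to 2 ligands and 0 to 2 receptors, the 2 ligands without PBS lung 2. The genes called in the whole table ranged from 0 to 962 over these omissions, with the 962 also found without PBS lung 2. They numbered 135 with a mean of at least 2 TPM, 71 without S100a8 and S100a9, 3 without a filter, 2 without a variance trend and 476 with 2 groups fitted alone. The cause of these shifts was not tested.

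Differences near 0 changed sign. For anti-PD1 against PBS, Cxcl2 was at -0.035 with median-of-ratios scaling, at -0.0024 without S100a8 and S100a9, and between -0.036 and 0.14 over the omissions of a lung. Cxcl9 ran from -0.12 to 0.59 over the omissions in this comparison, and from -0.30 to 0.030 for the nanocapsule against PBS. The median of the ligands for the nanocapsule against PBS was 0.02 without nanocapsule lung 2, where its range over the omissions began at -0.24.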
